A study of Mus musculus with 12 samples.

Results

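The ubiquitin-specific proteases (USPs) are the largest family of deubiquitinases, enzymes that remove the small protein ubiquitin from other proteins or take chains of it apart. They share a cysteine protease fold and differ in the domains around it, which direct each member to its substrates in the nucleus, on membranes or at the proteasome. In T cells, members act on signalling proteins below the antigen receptor, on histones and on proteins of DNA repair. The members described here are all loci of the files whose gene symbol begins with Usp and a digit, except Usp14. They are 39 of the 12918 symbols listed, and 37 of them reached the minimum of 1 FPKM (a read density per length of transcript and per sequenced library) in at least 3 of 12 libraries. Usp27x and Usp44 were listed in 1 library each and were not tested. The symbol rule also takes in Usp6nl, which encodes a Rab GTPase-activating protein and no deubiquitinase.

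RNA came from CD4 T cells of mouse spleen, in 4 groups of 3 libraries, and the title of the series concerns a faulty proteasome in T cells. The groups were KIKO cells activated for 16 h on beads coated with antibodies that bind CD3 and CD28, KI cells activated in the same way, naive KIKO cells and naive KI cells. KI and KIKO are all that the labels say of the genotypes; the altered gene and the strain were not known from the sources, nor was it known whether the libraries of a group came from separate animals. The p-values therefore measure the spread between these libraries, which may be technical. Titles of the activated KIKO samples say T cells without CD4, although their source is given as CD4 T cells.

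The libraries listed 9771 to 11102 loci each, and depth is unknown because FPKM give no read numbers. Of 7 genes that mark CD4 T cells, 5 were listed in the files, and Cd28 and Lck were not. Their summed level was 477 to 703 FPKM in activated KIKO libraries, 1009 to 1208 in activated KI, 795 to 866 in naive KIKO and 1047 to 1277 in naive KI libraries. The 4 markers of activation (Cd69, Il2ra, Myc and Nr4a1) summed to 255 to 389 FPKM in activated KIKO libraries, against 427 to 464 FPKM in activated KI libraries. The activated groups thus differed in this sum as well as in the members described below. Il2ra and Myc were lower in every activated KIKO library, and Cd69 overlapped. Nr4a1 was higher, with 74.5, 81.7 and 74.4 FPKM in activated KIKO and 68.0, 58.0 and 59.2 FPKM in activated KI libraries. Naive KIKO library 2 and activated KIKO library 2 held 202 and 162 FPKM of the summed myeloid markers, of which S100a8, S100a9 and Lyz2 made up most, while no other library exceeded 5.97 FPKM. Naive KIKO library 2 also had 85319 listed events, fewer than the 100188 to 112679 of the others. The part that these differences play in the results was not tested, and counts without the pair of KIKO libraries are given where they differ.

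Some loci of the files hold more than the gene they are named for, as shown by exon and intron lengths set against the GENCODE M21 annotation. Among the 39 members, 33 loci matched their own gene, 5 were undecided (Usp27x, Usp30, Usp36, Usp39 and Usp44) and 1 matched another gene. The last is the locus listed as Usp50, of whose 34 lengths none matched Usp50 and 15 matched Usp8, a deubiquitinase of endosomes. It is called the Usp50 (Usp8) locus here. The locus listed as Usp5 also holds Tpi1, the gene of the glycolytic enzyme triosephosphate isomerase, and the locus listed as Usp49 also holds Med20, a subunit of the Mediator complex. Genes matching Usp15, Usp37 and Usp4 were found under other names and are described apart.

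The 37 members were tested on log2(FPKM + 1) by limma in 5 comparisons, with p-values adjusted over all 9743 loci that passed the filter. A member was called, or passed, at an adjusted p under 0.05. In activated cells 17 members differed between KIKO and KI, 12 higher and 5 lower in KIKO. That is 45.9% of the members, against 40.0% of all loci (20.7% higher and 19.3% lower). The 12 became 6 without activated KIKO library 1 or activated KI library 3, and 7 without activated KIKO library 3. Calls over all loci, either way, fell as well, from 3898 to 3279, 3059 and 3418 in that order. In naive cells no member passed, while 10.4% of all loci did (6.46% higher and 3.90% lower in KIKO). Activation changed 17 members in KIKO cells, 5 higher and 12 lower, which is again 45.9% of members and compares with 47.3% of all loci (25.1% higher and 22.2% lower). The 5 became 2 without naive KIKO library 2 or activated KIKO library 2, and 3 without activated KIKO library 1. Over all loci the calls either way went from 4609 to 4476, 3599 and 3840 in that order. In KI cells activation changed 22 members, 7 higher and 15 lower, or 59.5% of members against 61.7% of all loci (32.2% higher and 29.5% lower). With both directions counted together, the family was thus called about as often as loci at large in these comparisons of activated cells. By direction its calls leaned to higher in activated KIKO cells and to lower on activation, where those of all loci were more even. These leanings were not tested. Bulk RNA of this kind cannot tell fewer cells of a type from less RNA per cell.

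**Figure D1:**
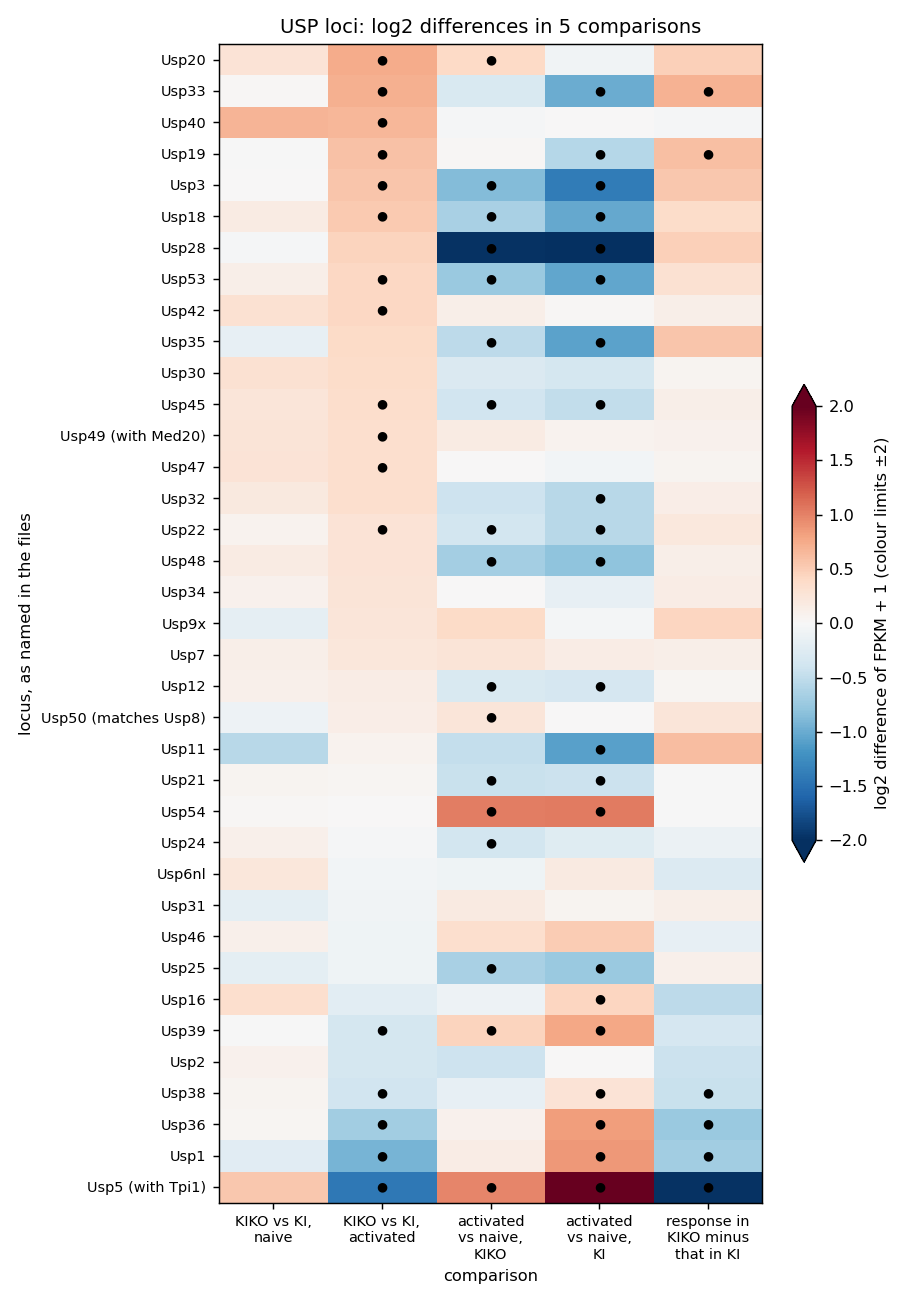
Log2 differences (of FPKM + 1, colour) of the 37 tested loci (rows, in order of the difference between activated KIKO and activated KI cells) in the 5 comparisons (columns); a black dot marks a limma adjusted p under 0.05. Blue cells fill most of the 2 activation columns' called entries, the second column has 12 red and 5 blue called entries, and the first column has none.

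Levels per length differed widely within the family. The mean over 12 libraries had a median of 15.5 FPKM across the tested members, with 0.788 FPKM for Usp2 at the low end. Usp5 (72.1 FPKM, with Tpi1 in the value), Usp7 (59.7 FPKM) and Usp19 (38.8 FPKM) had the highest means. Usp7, which acts on the p53 regulator MDM2, had 58.2, 69.4 and 80.1 FPKM in activated KIKO libraries and 61.0, 54.7 and 60.9 FPKM in activated KI libraries. Its naive values were 67.9, 48.8 and 56.8 FPKM in KIKO and 56.1, 50.7 and 52.2 FPKM in KI libraries. All groups of Usp7 overlapped for genotype, and no comparison of it passed the test.

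Usp5 disassembles free ubiquitin chains, the form that is left when proteins enter the proteasome, and its value depends on what is counted. Over the whole locus the level was 72.6, 67.7 and 49.3 FPKM in activated KIKO libraries and 163, 141 and 213 FPKM in activated KI libraries. Naive KIKO libraries had 31.2, 33.4 and 29.3 FPKM, and naive KI libraries 19.6, 21.2 and 23.1 FPKM. On that measure Usp5 was lower in activated KIKO than in activated KI cells (log2 difference -1.43 ± 0.16 (SE), adjusted p = 3.5e-05). The stretch that matches Tpi1 (chr6:124787549-124791121 in GRCm39, minus strand) carried most of the activated KI value, with 135.9, 110.4 and 181.7 FPKM there, against 25.8, 16.0 and 10.1 FPKM in activated KIKO libraries.

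The exons of Usp5 itself (chr6:124794031-124806447 in GRCm39, minus strand) gave the opposite direction. Their level was 46.7, 51.7 and 39.2 FPKM in activated KIKO libraries, against 27.3, 30.9 and 31.1 FPKM in activated KI libraries. In naive cells it was 25.5, 27.1 and 24.6 FPKM in KIKO, against 13.8, 16.6 and 16.2 FPKM in KI libraries. KIKO libraries lay above KI libraries without overlap in both states. The log2 difference was 0.60 ± 0.11 in activated cells (adjusted p = 0.00121) and 0.70 ± 0.11 in naive cells (adjusted p = 0.00315). Activation raised the level in KIKO cells by 0.80 ± 0.11 (adjusted p = 1.6e-04) and in KI cells by 0.90 ± 0.11 (adjusted p = 2.4e-05), and the difference of these responses, -0.10 ± 0.16, did not pass (adjusted p = 0.72). With this measure in place of the whole locus, Usp5 was the member called in naive cells. This measure was added after the values were seen.

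**Figure D2:**
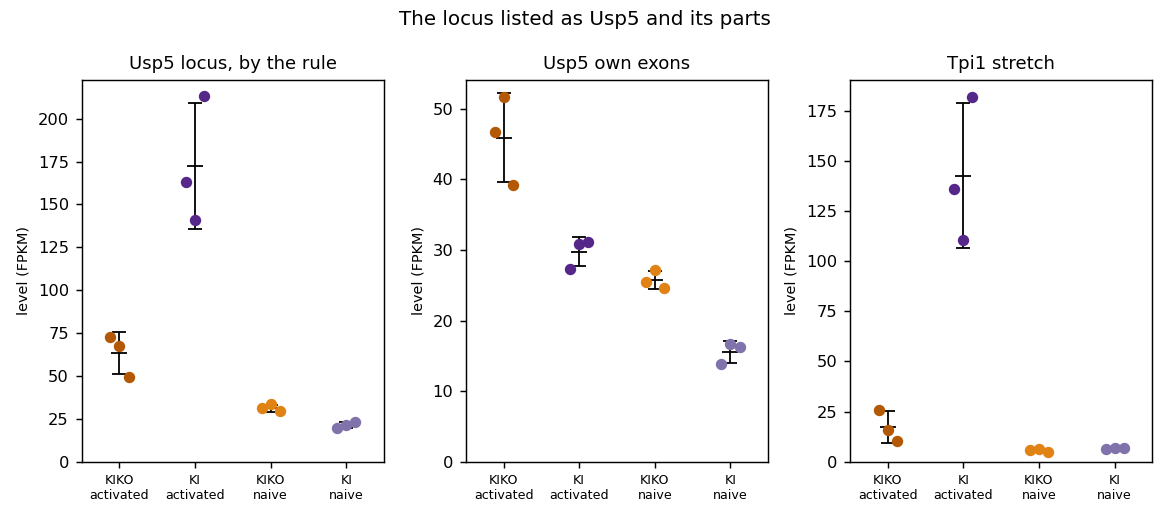
Level in FPKM (vertical axes, each with its own scale) of the locus listed as Usp5, of the exons of Usp5 alone and of the Tpi1 stretch, in the 4 groups; points are libraries, bars the mean ± SD of 3. The whole locus reaches 141 to 213 FPKM in activated KI libraries, whereas the exons of Usp5 are highest in activated KIKO libraries, at 39.2 to 51.7 FPKM.

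One exon of Usp5 was listed in a longer form of 192 bases and a shorter form of 123 bases that share their first bases (GRCm39 chr6:124795438-124795629 for the longer form). The 69 extra bases keep the reading frame and add 23 codons; in human cells this choice is known to give a longer and a shorter USP5 protein. It is shown because its forms were measured apart in the files and lie in the stretch on which the result for Usp5 rests. The sequence is that of the GENCODE M21 transcript (GRCm38 chr6:124818475-124818666, minus strand), with the extra bases in capitals.
Usp5 exon: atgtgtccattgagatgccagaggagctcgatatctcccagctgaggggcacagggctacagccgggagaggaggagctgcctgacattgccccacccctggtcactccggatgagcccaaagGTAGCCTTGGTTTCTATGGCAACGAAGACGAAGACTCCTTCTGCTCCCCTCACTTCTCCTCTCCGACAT
The longer form made up 18.9, 18 and 10.8% of both in activated KIKO libraries and 17.6, 13.9 and 17.9% in activated KI libraries. In naive libraries its share was 11.3, 0 and 13.5% in KIKO and 0, 7.85 and 12.4% in KI, where 0 means that the form was not listed. The groups of the 2 genotypes overlapped in both states. The shorter form had 36.9, 40 and 33.8 FPKM in activated KIKO libraries against 22, 25.3 and 24.9 FPKM in activated KI libraries, again with KIKO above KI.

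The 5 loci whose profile over the 12 libraries was most like that of the Usp5 exons were Psmd2, Psmd14, Psma5, the locus listed as Armc9 and Psmc5, with a Pearson r of 0.987 to 0.990. Of the 41 lengths of the Armc9 locus, 20 match Armc9 and 15 match its neighbour Psmd1. Psmd2, for example, averaged 209 FPKM in activated KIKO, 94.3 in activated KI, 72.8 in naive KIKO and 34.0 in naive KI libraries. By the whole locus the 5 most alike were different ones, Sms, Cox7b, Polr1e, Exosc2 and Exosc10, at 0.988 to 0.992. These correlations are descriptions over 12 points in 4 groups, and the points share their library and its depth.

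Among members that act in genome maintenance, Usp1 differed most between the genotypes. Usp1, which with its partner Wdr48 takes ubiquitin off the repair proteins FANCD2 and PCNA, had 23.7, 24.4 and 23.5 FPKM in activated KIKO libraries, against 40.9, 46.8 and 52.0 FPKM in activated KI libraries. Naive libraries held 21.2, 19.7 and 23.3 FPKM in KIKO and 25.1, 27.5 and 22.9 FPKM in KI. Every activated KI library lay above all others, and activated KIKO libraries stayed near the naive ones. The difference in activated cells was -0.93 ± 0.11 (adjusted p = 3.8e-05). Activation raised Usp1 in KI cells by 0.86 ± 0.11 (adjusted p = 2.1e-05), and the value in KIKO cells, 0.15 ± 0.11, did not pass (adjusted p = 0.254). The difference of the responses was -0.70 ± 0.15 (adjusted p = 0.00719).

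Usp28, which stabilises MYC and binds the damage-response protein 53BP1, had the largest fall on activation of the tested members. It fell to 10.7, 6.02 and 16.4 FPKM in activated KIKO libraries, against 43.1, 42.7 and 44.3 FPKM in naive KIKO libraries (-1.98 ± 0.24, adjusted p = 5.2e-05). Activated KI libraries had 7.41, 6.39 and 8.13 FPKM, against 45.4, 45.8 and 41.0 FPKM in naive KI libraries (-2.44 ± 0.24, adjusted p = 3.1e-06). The genotypes overlapped in both states. Usp45, which acts on the repair nuclease subunit ERCC1, had 4.88, 4.49 and 4.86 FPKM in activated KIKO and 3.37, 3.82 and 3.34 FPKM in activated KI libraries. Its naive values were 6.98, 5.99 and 6.69 FPKM in KIKO and 5.12, 5.93 and 5.10 FPKM in KI libraries. KIKO was higher in activated cells (0.35 ± 0.11, adjusted p = 0.0235), and both genotypes fell on activation. The genotype call did not pass without library 1 or 3 of either activated group, at 0.32 to 0.34 (adjusted p up to 0.0722). Of the 7 members of this group, 4 fell on activation in KI cells (Usp11, Usp28, Usp45 and Usp48) and 1 rose (Usp1). These 5 are 71.4% of the group, against 61.7% of all loci (29.5% lower and 32.2% higher). In KIKO cells 3 fell and none rose, which is 42.9%, against 47.3% of all loci (22.2% lower and 25.1% higher).

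The members that act on histones H2A and H2B were 7, of which 5 were tested. Usp3, an H2A deubiquitinase, had 14.2, 13.7 and 19.9 FPKM in activated KIKO libraries, against 10.7, 9.81 and 10.7 FPKM in activated KI libraries (0.55 ± 0.14, adjusted p = 0.00707). In naive cells it had 31.9, 24.9 and 32.0 FPKM in KIKO and 27.6, 29.6 and 30.1 FPKM in KI libraries, which overlap. With summed transcript ends alone no call of Usp3 passed. Usp3 fell on activation by 0.86 ± 0.14 in KIKO cells (adjusted p = 3.4e-04) and by 1.40 ± 0.14 in KI cells (adjusted p = 3.5e-06). Usp22, the H2B deubiquitinase of the SAGA coactivator complex, had 12.9, 12.7 and 14.7 FPKM in activated KIKO and 10.2, 11.9 and 10.4 FPKM in activated KI libraries. It had 18.0, 15.9 and 18.5 FPKM in naive KIKO and 17.4, 16.5 and 15.7 FPKM in naive KI libraries. The activated genotypes did not overlap (0.28 ± 0.10, adjusted p = 0.0374). That call was lost in 10 of the settings tried, among them leaving out naive KI library 2 or library 1 or 3 of either activated group, where it was 0.22 to 0.31 (adjusted p up to 0.122). Usp21 fell on activation in both genotypes, and Usp16 rose in KI cells (0.43 ± 0.13, adjusted p = 0.0108), which was lost after quantile normalization and after rescaling to an equal sum. The Usp49 locus was called higher in activated KIKO cells (0.34 ± 0.12, adjusted p = 0.0345), but its level there is that of Med20, at 8.24 to 12.6 FPKM in activated libraries. The stretch of Usp49 itself had 0.648, 0.738 and 0.863 FPKM in activated KIKO libraries. In activated KI libraries it had 1.75, 1.64 and 1.29 FPKM, and it was called lower in KIKO (-0.55 ± 0.19, adjusted p = 0.0335). Outside activated KI cells only naive KIKO library 2, at 1.04 FPKM, reached 1 FPKM. The stretch thus passed the filter through the group where it is high, and it was chosen after the values were seen. This call is therefore no evidence of a difference. The call of the whole locus was lost without activated KIKO library 1 or 2 or any activated KI library, at 0.31 to 0.37 (adjusted p up to 0.11).

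In chain recycling and protein quality control, Usp19 and Usp25 stood beside Usp5 and Usp9x. Usp19, a deubiquitinase anchored in the endoplasmic reticulum, had 41.7, 48.3 and 38.5 FPKM in activated KIKO libraries, against 31.3, 28.7 and 24.4 FPKM in activated KI libraries. Naive libraries had 42.4, 36.6 and 47.1 FPKM in KIKO and 46.0, 44.2 and 36.3 FPKM in KI. Activated KI libraries were thus the low ones and the other groups overlapped. The difference in activated cells was 0.59 ± 0.13 (adjusted p = 0.00402). Usp19 fell in KI cells by 0.57 ± 0.13 (adjusted p = 0.00275), and the difference of the responses was 0.60 ± 0.19 (adjusted p = 0.0433). This last value did not pass without library 1 or 2 of naive KIKO, naive KI or activated KIKO cells or library 2 or 3 of activated KI cells, at 0.50 to 0.61 (adjusted p up to 0.106). Usp25 fell in both genotypes, by 0.65 ± 0.09 in KIKO and by 0.75 ± 0.09 in KI cells (adjusted p = 1.3e-04 and 1.5e-05).

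Among the members of membrane traffic and mitochondria, Usp33 was called in 3 comparisons. Usp33, which acts on receptors that cycle through endosomes, had 21.4, 21.5 and 24.3 FPKM in activated KIKO libraries, against 14.7, 14 and 11.2 FPKM in activated KI libraries. Naive values were 31.8, 20.7 and 32.3 FPKM in KIKO and 27.3, 28.4 and 26.3 FPKM in KI libraries. The activated genotypes did not overlap (0.71 ± 0.16, adjusted p = 0.00329), while the naive ones did. Usp33 fell in KI cells by 0.99 ± 0.16 (adjusted p = 1.4e-04), and the difference of the responses was 0.69 ± 0.22 (adjusted p = 0.0436). The difference of the responses did not pass when any 1 of the naive KI or activated KIKO libraries was left out or without activated KI library 2 or 3, at 0.58 to 0.73 (adjusted p up to 0.107). Its close relative Usp20 was also higher in activated KIKO cells (0.74 ± 0.14, adjusted p = 0.00142), a call lost with summed transcript starts alone. Usp35, linked to the removal of mitochondria, had 2.07, 1.03 and 1.91 FPKM in activated KIKO and 0.933, 1.20 and 0.950 FPKM in activated KI libraries. In naive cells its level was 3.23, 2.35 and 2.76 FPKM in KIKO and 3.15, 3.34 and 3.23 FPKM in KI libraries. It fell on activation in both genotypes, and the genotypes overlapped in each state. The fall in KIKO cells (-0.52 ± 0.18, adjusted p = 0.0335) was lost without naive KIKO library 1 or 3 or activated KIKO library 2, at -0.52 to -0.33. The Usp50 (Usp8) locus rose by 0.24 ± 0.08 in KIKO cells (adjusted p = 0.0301). Without naive KIKO library 2 or 3 or activated KIKO library 1 or 2 this call was lost, at 0.22 to 0.25 (adjusted p up to 0.0869).

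**Figure D3:**
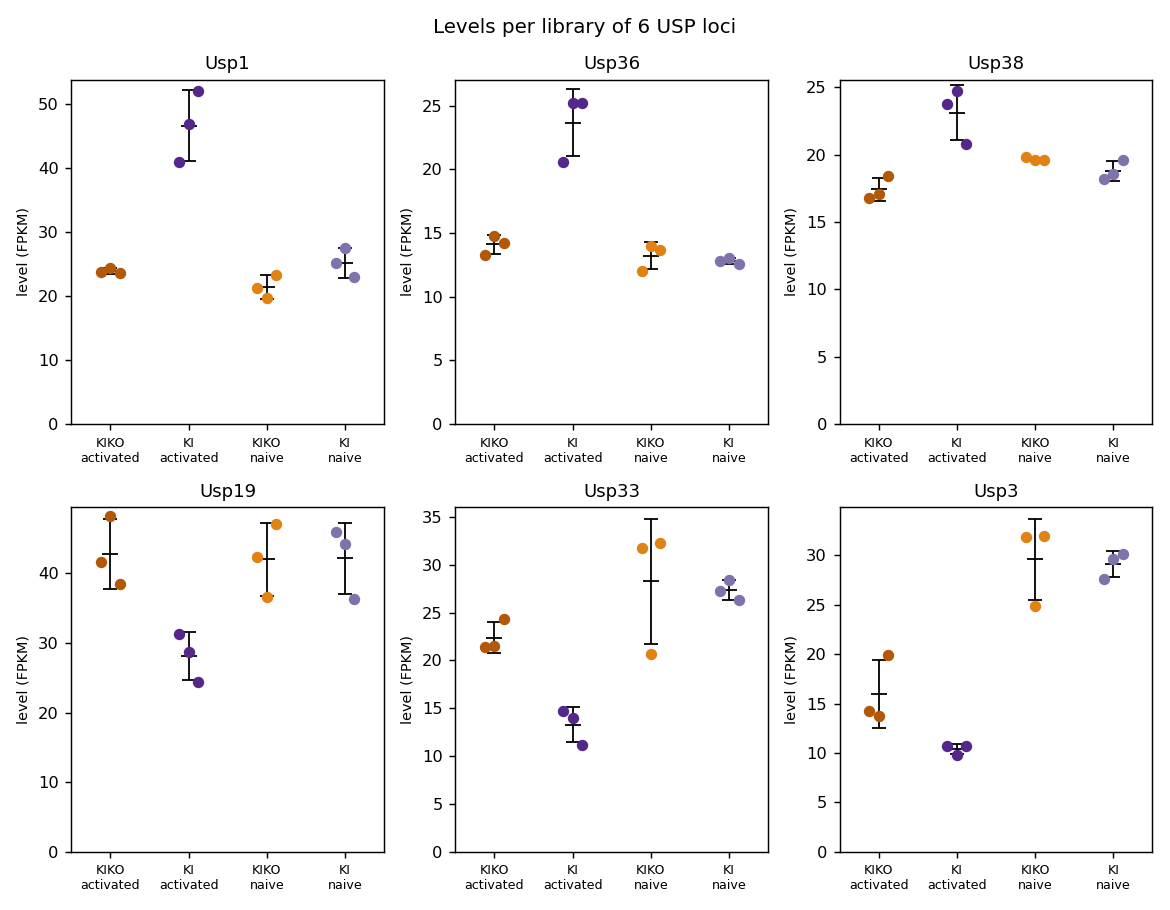
Levels in FPKM (vertical axes) of Usp1, Usp36, Usp38, Usp19, Usp33 and Usp3 in the 4 groups; points are libraries, bars the mean ± SD of 3. Activated KI libraries are the highest for Usp1, at 40.9 to 52.0 FPKM, and the lowest for Usp19, at 24.4 to 31.3 FPKM.

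Members tied to immune signalling were Usp18 and Usp38 among those called for genotype. Usp18, which removes the ubiquitin-like protein ISG15, had 3.08, 2.27 and 2.70 FPKM in activated KIKO libraries, against 2.18, 1.31 and 1.23 FPKM in activated KI libraries. Its naive levels were 4.32, 6.11 and 4.10 FPKM in KIKO and 3.61, 3.95 and 5.06 FPKM in KI libraries. The activated difference of 0.53 ± 0.19 (adjusted p = 0.0414) was lost in 12 of the settings tried. These include leaving out naive KIKO library 1, naive KI library 2, activated KIKO library 1 or 3 or activated KI library 2 or 3, with values of 0.44 to 0.53 (adjusted p up to 0.141), and with summed ends alone the sign turned. Usp38, which acts in interferon signalling, had 16.8, 17.1 and 18.4 FPKM in activated KIKO libraries, against 23.8, 24.7 and 20.8 FPKM in activated KI libraries. It had 19.8, 19.6 and 19.6 FPKM in naive KIKO and 18.2, 18.6 and 19.6 FPKM in naive KI libraries. Usp38 was lower in activated KIKO cells (-0.38 ± 0.09, adjusted p = 0.00399) and rose on activation in KI cells (0.28 ± 0.09, adjusted p = 0.0144; without activated KI library 2 it was 0.23, adjusted p = 0.0691). The difference of the responses was -0.44 ± 0.12 (adjusted p = 0.0246), and it did not pass when any of naive KI libraries 1 and 2, activated KIKO library 1 or activated KI library 2 was left out, at -0.44 to -0.40. Rescaling to an equal sum ended all 3 calls of Usp38.

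Usp36 and Usp39 serve the nucleolus and splicing. Usp36, a nucleolar enzyme of ribosome production, had 13.3, 14.8 and 14.2 FPKM in activated KIKO libraries, against 20.6, 25.2 and 25.2 FPKM in activated KI libraries. Naive libraries held 12.0, 14 and 13.7 FPKM in KIKO and 12.8, 13.0 and 12.6 FPKM in KI. As for Usp1, activated KI libraries alone stood high. The difference in activated cells was -0.70 ± 0.10 (adjusted p = 2.0e-04), the rise in KI cells 0.83 ± 0.10 (adjusted p = 1.7e-05) and the difference of the responses -0.74 ± 0.14 (adjusted p = 0.00412), which did not pass with summed starts alone. Usp39, a splicing factor without protease activity, had 21.4, 19.9 and 19.5 FPKM in activated KIKO and 25.7, 25.3 and 27.4 FPKM in activated KI libraries. In naive cells it had 14.3, 12.6 and 17.5 FPKM in KIKO and 14.1, 15.3 and 15.1 FPKM in KI libraries. It rose on activation in both genotypes, by 0.44 ± 0.11 in KIKO (adjusted p = 0.00561) and by 0.78 ± 0.11 in KI cells (adjusted p = 5.8e-05), and was lower in activated KIKO cells (-0.35 ± 0.11, adjusted p = 0.0235). The last call was lost without activated KIKO library 2 or 3 or activated KI library 3, at -0.34 to -0.31, and after rescaling to an equal sum.

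**Figure D4:**
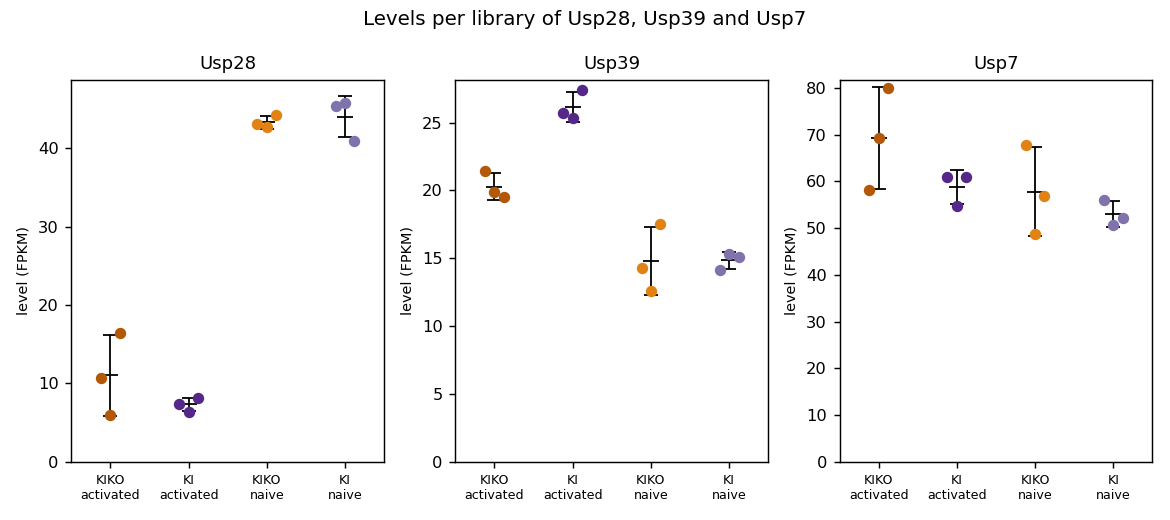
Levels in FPKM (vertical axes) of Usp28, Usp39 and Usp7 in the 4 groups; points are libraries, bars the mean ± SD of 3. Usp28 is at 41.0 to 45.8 FPKM in naive libraries and at most 16.4 FPKM in activated ones, Usp39 is higher in activated libraries and Usp7 overlaps between groups.

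Among the remaining members, Usp53, a protein of cell junctions, had 4.00, 3.52 and 4.34 FPKM in activated KIKO and 2.62, 3.10 and 2.40 FPKM in activated KI libraries. It had 7.21, 7.00 and 7.57 FPKM in naive KIKO and 6.44, 7.54 and 5.95 FPKM in naive KI libraries. Usp53 was higher in activated KIKO cells (0.42 ± 0.12, adjusted p = 0.0177) and fell on activation in both genotypes. The genotype call was lost without activated KIKO library 1 or 3 or activated KI library 3, at 0.36 to 0.41 (adjusted p up to 0.0694). Its relative Usp54, absent from 2 naive libraries, rose in both genotypes, by 1.03 ± 0.39 in KIKO and by 1.04 ± 0.39 in KI cells (adjusted p = 0.0446 and 0.034), calls that were lost in 13 and 6 of the settings tried. The KIKO call did not pass without naive KIKO library 2 or any 1 of the 6 activated libraries, at 0.60 to 1.08, and the KI call without naive KI library 3 or activated KI library 1 or 2, at 0.62 to 1.05. Usp40, Usp42 and Usp47 were also higher in activated KIKO cells, by 0.66 ± 0.24, 0.41 ± 0.10 and 0.33 ± 0.09 (adjusted p = 0.0433, 0.00741 and 0.0122). For Usp40 the activated groups overlapped, and the call was lost in 17 settings, 9 of which left out 1 library, with values of 0.44 to 0.71 (adjusted p up to 0.184). The call of Usp42 was lost with summed starts alone, and that of Usp47 without activated KI library 2, at 0.28 (adjusted p = 0.0586).

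In naive cells limma called none of the 37 members, and 7 had an unadjusted p under 0.05, 6 higher and 1 lower in KIKO. That is 18.9% of the members, against 26.4% of all loci. The groups did not overlap for 9 members, or 24.3%, against 33.1% of all loci, so that both shares were below those of loci at large. One member was called higher when activated KIKO library 3 or activated KI library 1 or 3 was left out. The 9 members without overlap were Usp5, Usp12, Usp16, Usp40, Usp42, Usp45 and Usp47, higher in KIKO, and Usp11 and Usp25, lower. Besides Usp5, the differences with the smallest adjusted p were 0.27 ± 0.09 for Usp47 (adjusted p = 0.0786), 0.30 ± 0.10 for Usp42 (adjusted p = 0.0834) and 0.68 ± 0.24 for Usp40 (adjusted p = 0.0895). The median log2 difference of the members was 0.09, against 0.047 over all loci.

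In activated cells the median log2 difference of the members was 0.24, against 0.040 over all loci. The split of calls followed the scaling. It was 12 higher and 5 lower as deposited, 8 and 5 after median-ratio scaling, 6 and 5 after quantile normalization and 15 and 3 after rescaling to an equal sum. Over all loci the calls either way were 3898 of 9743, 3952 of 9737, 3710 of 9743 and 4035 of 9746 in that order. Without both KIKO libraries numbered 2 the split of the members was 13 and 6, and 4156 of 9743 loci were called. With the exons of Usp5 and Usp49 alone the split remained 12 and 5, because Usp5 moved to the higher and Usp49 to the lower ones. The call of Usp49 has the limit given above.

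The activation responses of the genotypes can be set side by side. All 7 members that rose in KI cells had a smaller log2 difference in KIKO cells. Of the 15 that fell in KI cells, 14 had a smaller difference in KIKO cells, Usp21 being the exception. The same was true of 84.4% of all loci that rose in KI cells and of 83.9% of those that fell, and choosing loci by their call in KI cells favours a larger value there. Rescaling to an equal sum gave 2 higher and 14 lower members in KIKO cells and 4 higher and 16 lower in KI cells. Of 9746 loci it called 4687 in KIKO cells and 5993 in KI cells. Without both KIKO libraries numbered 2 the KIKO counts were 2 and 9, and 3598 of 9743 loci were called.

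A direct test of whether activation acted differently in KIKO and KI cells was passed by 6 members, or 16.2%, against 20.6% of all loci (8.99% higher and 11.6% lower in KIKO). Usp1, Usp36, Usp38 and the Usp5 locus responded less or lower in KIKO, and Usp19 and Usp33 higher. For the Usp5 locus (-1.97 ± 0.23, adjusted p = 3.2e-04) the exons of Usp5 alone did not pass, as given above, whereas the Tpi1 stretch did (-2.80 ± 0.37, adjusted p = 6.7e-04). Without both KIKO libraries numbered 2, Usp1 gave -0.78 (adjusted p = 0.0106), Usp36 -0.74 (adjusted p = 0.00997) and Usp38 -0.43 (adjusted p = 0.0492), while Usp19 at 0.42 (adjusted p = 0.14) and Usp33 at 0.52 (adjusted p = 0.0501) did not pass.

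The promoters of Usp19, Usp36 and Usp38 are shown because these members responded differently in the genotypes. Usp1, Usp5 and Usp33 had no entry in the promoter table. Each is the 250 bases before the annotated start, from RefSeq on GRCm38.p6, with any motif match in capitals.
Usp19, chr9:108490426-108490675, plus strand: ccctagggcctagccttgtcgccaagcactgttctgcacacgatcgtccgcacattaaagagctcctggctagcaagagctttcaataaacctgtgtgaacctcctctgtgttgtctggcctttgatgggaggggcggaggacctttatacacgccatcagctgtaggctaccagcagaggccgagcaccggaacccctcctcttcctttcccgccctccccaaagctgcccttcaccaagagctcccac
Usp36, chr11:118290245-118290494, minus strand: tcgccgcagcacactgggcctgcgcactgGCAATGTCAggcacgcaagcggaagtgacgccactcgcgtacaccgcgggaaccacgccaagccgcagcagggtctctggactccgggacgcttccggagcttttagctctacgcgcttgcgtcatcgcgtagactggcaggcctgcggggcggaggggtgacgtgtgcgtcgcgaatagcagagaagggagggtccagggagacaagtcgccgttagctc
Usp38, chr8:81014907-81015156, minus strand: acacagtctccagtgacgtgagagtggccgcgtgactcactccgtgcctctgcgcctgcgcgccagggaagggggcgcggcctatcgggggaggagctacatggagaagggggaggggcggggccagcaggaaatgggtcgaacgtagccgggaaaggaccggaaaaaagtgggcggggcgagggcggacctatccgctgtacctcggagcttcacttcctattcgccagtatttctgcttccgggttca
The motifs searched on both strands were CACGTG (the E-box), TGANNNNGC (the core of the antioxidant response element), TTTGGCGC (an E2F element) and CCAAT. The only match in the 3 promoters was the antioxidant core in Usp36, on the opposite strand at positions -221 to -213 from the start. Of the 29 members with a promoter in the table, 8 held that core, 5 held CCAAT, 3 the E-box and none the E2F element. In all 32851 promoters the shares were 35.2% for the antioxidant core, 33.8% for CCAAT, 6.02% for the E-box and 0.417% for the E2F element.

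Start use was compared as the share of the largest transcript start at 23 members with at least 2 listed starts, without a test. This share did not overlap between activated KIKO and activated KI libraries at 6 members, or 26.1%, against 17.1% of all such loci. It did not overlap between naive KIKO and naive KI libraries at 4 members, against 12.0% of loci, and these counts include Usp5 and Usp49, whose loci hold a second gene. Usp9x, a large deubiquitinase of many substrates whose level passed in no comparison, was singled out after its values were seen. Of its 6 listed starts, the pair compared here shared 1 position (X chromosome, 12937645 in GRCm39) and had a first exon of 328 or 920 bases. The shorter form made up 25.5, 80 and 49.5% of both in activated KIKO libraries, against 7.26, 4.78 and 5.61% in activated KI libraries. In naive libraries its share was 90.5, 93.1 and 65.3% in KIKO and 67.8, 82.7 and 100% in KI. Of these forms, activated KI libraries thus carried mostly the longer exon, and activated KIKO libraries, whose spread was wide, lay between these and most naive ones.

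**Figure D5:**
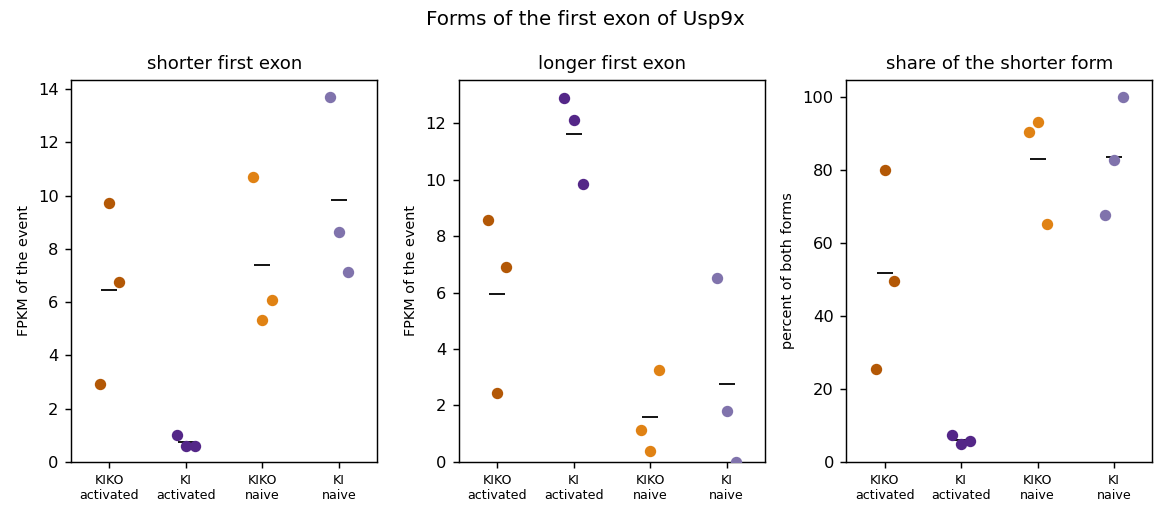
FPKM of the shorter (328 bases) and the longer (920 bases) first exon of Usp9x and the share of the shorter form in percent (vertical axes) in the 4 groups; points are libraries and bars the mean of 3. The share is 4.78 to 7.26% in activated KI libraries, 25.5 to 80% in activated KIKO and 65.3 to 100% in naive libraries.

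Paralogues did not always go the same way. Usp36 was lower in activated KIKO cells while its relative Usp42 was higher, with log2 differences of -0.70 and 0.41. Likewise Usp38 stood at -0.38, and the value of Usp35, 0.38, did not pass. Usp20 and Usp33 were both higher, at 0.74 and 0.71. Usp25 and Usp28 both fell on activation in both genotypes. Close relatives may share reads, and how the reads were shared out is not known, so that a split between them is uncertain.

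The loci that match further family members gave small differences. The locus Gm37733 matched Usp37 in 7 of 7 lengths and was higher in naive KIKO cells, with 5.90, 5.79 and 5.88 FPKM, against 4.54, 3.97 and 3.50 FPKM in naive KI cells (0.46 ± 0.11, adjusted p = 0.0228). The locus 1700102P08Rik matched Usp4 in 15 of 15 lengths and rose on activation in KI cells (0.40 ± 0.12, adjusted p = 0.0129). The locus ENSMUSG00002076638, which matched Usp15 in 12 of 16 lengths, passed in no comparison.

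Deubiquitinases of other families and partners of the USPs were counted from lists. Of 32 other deubiquitinases tested, 8 were higher and 5 lower in activated KIKO than in activated KI cells, which at 40.6% is close to the 40.0% of all loci. The proteasome-bound Uchl5 was among the lower ones, with 17.4, 19.9 and 18.9 FPKM in activated KIKO and 28.3, 35.1 and 41.7 FPKM in activated KI libraries (-0.86 ± 0.12, adjusted p = 2.0e-04). Uchl1, a deubiquitinase best known from neurons, had 11.2, 12.2 and 7.69 FPKM in activated KIKO libraries. In activated KI libraries it had 0.228, 0.198 and 0 FPKM (3.30 ± 0.22, adjusted p = 9.4e-07), at a locus whose lengths left its identity undecided. Uchl1 reached 1 FPKM in KIKO libraries only, so it passed the filter through the genotype where it is high. Its p-value therefore adds no support, and its values are a description. In naive cells 4 of the 32 were higher in KIKO and 1 was lower, or 15.6%, against 10.4% of all loci. Of 13 partner subunits tested, 4 were higher in activated KIKO cells and 2 were lower, or 46.2%, against 40.0% of all loci. Wdr48, the activating partner of Usp1, Usp12 and Usp46, was higher in KIKO where Usp1 was lower, with 18.6, 17.8 and 17.2 FPKM in activated KIKO and 10.2, 11.2 and 10.6 FPKM in activated KI libraries (0.69 ± 0.11, adjusted p = 4.7e-04). It was also higher in naive KIKO cells (0.39 ± 0.11, adjusted p = 0.0468). Hgs, which sorts ubiquitin-tagged receptors on endosomes, was higher in activated KIKO cells by 1.24 ± 0.10 (adjusted p = 3.0e-06).

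Of the genes that encode ubiquitin itself, Ubb had 2665, 2740 and 1559 FPKM in activated KIKO libraries, against 818, 892 and 826 FPKM in activated KI libraries (1.41 ± 0.18, adjusted p = 8.9e-05). Rps27a, which encodes ubiquitin fused to a ribosomal protein, was lower (-1.01 ± 0.33, adjusted p = 0.0271). The repeats of Ubb and the pseudogenes of Rps27a may share reads, so these values are uncertain.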

How the data were processed

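Poly(A) RNA of 12 libraries was sequenced from 15 ng of total RNA with a stranded kit, per the labels' protocols. FastQC 0.11.9, cutadapt 2.9 and HISAT2 2.2.0 are named in the submitters' processing notes, with the builds GRCm39 and mm10; the coordinates of the files are GRCm39. The authors deposited FPKM per transcript event (a start, an end, an exon form), and the sources used here do not name the program that made them. Events at 0 are not listed, and duplicate lines of an event were dropped. The level of a locus was taken as the largest of its summed starts, summed ends and largest event, and a locus absent from a library was set to 0. Values were tested as log2(FPKM + 1) with limma 3.58.1 (R 4.3.3, intensity trend, 4 group means, Benjamini-Hochberg over 9743 loci with at least 1 FPKM in at least 3 libraries); differences are on that scale and understate changes of low genes. Lengths of exons were compared with GENCODE M21 (GRCm38), with no conversion of coordinates. Values per library are given for the members called in most comparisons (14) and the 3 of highest level. The members and lists were chosen with earlier results of these data known. The tests of genotype in naive and activated cells were checked on simulated data with independent noise in each library. Such data do not cover libraries of shared origin or loci that hold a second gene.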

Additional observations from a re-analysis of the deposited data

Results flagged for a closer look

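The response to activation differed between KIKO and KI cells, by limma's test of the difference itself, at 6 members. The response in KIKO minus that in KI, on the log2 scale, was -0.70 for Usp1, -0.74 for Usp36, -0.44 for Usp38 and -1.97 for the Usp5 locus. It was 0.60 for Usp19 and 0.69 for Usp33. The value of the Usp5 locus holds Tpi1, and that of the exons of Usp5 alone was -0.10, which did not pass.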

How the results depend on the processing

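Of 62 calls of single members, 32 held under every setting in which they could be tested, with each locus taken whole. Summed ends alone could test 34 of the 62. With the exons of Usp5 alone, its call in activated cells changed sign, to 0.60. Its call for the difference of the responses was lost with these exons. Leaving out each library in turn gave 6 to 13 members higher and 4 to 5 lower in activated KIKO cells, 0 to 1 higher in naive KIKO cells, 5 to 8 higher and 15 to 17 lower on activation in KI cells, 2 to 5 higher and 9 to 13 lower on activation in KIKO cells, and 0 to 3 higher and 3 to 5 lower for the difference of the responses. Of all 9743 loci, the fits with 1 library left out called 3059 to 4255 for genotype in activated cells and 498 to 1169 in naive cells. They called 5372 to 6304 on KI activation, 3599 to 4663 on KIKO activation and 1361 to 2103 for the difference of the responses. Rescaling to an equal sum moved the median of all loci from 0.047 to 0.132 in naive cells and from 0.04 to 0.15 in activated cells. For KI activation rescaling moved it from -0.006 to -0.13. It gave 4 members higher in naive KIKO cells, 3 lower in activated KIKO cells, 4 higher on KI activation, 2 higher on KIKO activation and 0 with a higher response. Quantile normalization gave 6 higher in activated and 1 higher in naive KIKO cells, with 3710 and 985 of 9743 loci called either way. Summed ends alone, with which only 20 of the 37 members could be tested, gave 4 higher and 3 lower in activated KIKO cells, 3 higher and 7 lower on KI activation, 2 higher and 4 lower on KIKO activation and 0 with a higher response. With ends alone Usp12 (-0.01) and Usp5 (-0.32) in naive cells and Usp18 (-0.06) in activated cells changed sign; the cause was not tested. Summed starts, no filter and no trend each gave 0 with a higher response, and no filter 3 higher on KIKO activation. Fitting only the compared groups gave 1 higher in naive KIKO cells and 2 higher on KIKO activation. Only loci matching their own gene gave 3 lower in activated KIKO cells and 3 higher on KIKO activation. Settings chosen after seeing the data were the exons of Usp5 and Usp49 alone (1 higher in naive KIKO cells) and leaving out both KIKO libraries numbered 2 (2 higher on KIKO activation and 1 with a higher response). The 1 with a higher response was neither Usp19 nor Usp33, which did not pass there. For the Usp5 exons the difference in naive cells stayed at 0.62 to 0.79 and that in activated cells at 0.51 to 0.73; their response difference was 0.02 after quantile normalization and -0.18 to 0.01 with each library left out in turn. Deviations from the group means correlated at -0.036 to 0.121 between libraries of the same number. These values cannot tell whether such libraries came from the same animals, which is not known. Myeloid markers such as S100a9 were high in both KIKO libraries numbered 2 (110 FPKM naive and 92.8 FPKM activated). A replicate block gave 0 members with a higher response, and a replicate block within genotype 3 higher on KIKO activation. The block within genotype also ended the response calls of Usp19 and Usp38. With it the KIKO activation calls of Usp20 and the Usp50 (Usp8) locus were lost too. FPKM hold no read numbers, so what depth limits is unknown.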
